A study of Mus musculus with 9 samples.

Results

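The genes described here are 8 matrix metalloproteinase (MMP) genes that lie side by side on mouse chromosome 9, namely Mmp13, Mmp12, Mmp1b, Mmp3, Mmp10, Mmp8, Mmp27 and Mmp7. They were picked by symbol and position out of the 38924 genes of the deposited table, and their levels were followed in 9 RNA-seq libraries of primary cardiac fibroblasts. Mmp13 and Mmp10 had already stood out in these same comparisons, so that the levels and differences of the 8 genes are given as a description, with no p-value. Whether a gene passed an adjusted p of 0.05 in the fit over all genes is stated as part of that description and supports nothing. Genes outside the 8 were tested.

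All cells came from adult mice, 8 to 10 weeks old, that carry Cas9 and a green fluorescent protein on a C57BL/6 background. Fibroblasts were cultured for 3 days, sorted as CD45-CD31-CD90+ (away from blood and endothelial cells), replated, and 6 days later, at 80 to 90% confluency, transfected with guide RNAs. Control cells received scrambled guides, Gata4 knockdown (KD) cells received guides against Gata4, and Tbx20 KD cells guides against Tbx20, with 3 libraries, a, b and c, in each group. All groups therefore share Cas9, the sort and the transfection. Each library is a whole culture in which edited and unedited cells were sequenced together, and the labels do not say whether the libraries came from separate animals, so that p-values measure the spread between these libraries only. The libraries held 31214828 to 41950397 counts. Levels are in CPM, the count set against the library's total, with TMM scaling over all 9 libraries, unless a level per kb of exon is named.

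MMPs are secreted or membrane-bound zinc proteases that cut the extracellular matrix. They are made as inactive proenzymes, which become active when the propeptide is removed, and are held back by the tissue inhibitors of metalloproteinases (TIMPs). In the heart, fibroblasts are a major source of these enzymes, which take part in turnover and scarring of the matrix after injury. Gata4 and Tbx20 encode transcription factors of heart development that cardiac fibroblasts continue to express.

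The guide targets were measured first. Gata4 stood at 164, 156 and 166 CPM in control libraries a, b and c, at 53.7, 47.2 and 65.2 CPM in Gata4 KD and at 178, 192 and 199 CPM in Tbx20 KD. Against control, Gata4 KD gave -1.55 on the log2 scale (SE 0.12, edgeR quasi-likelihood test, Benjamini-Hochberg adjusted p = 0.00272). Tbx20 stood at 1001, 1288 and 714 CPM in control, at 670, 518 and 904 CPM in Gata4 KD and at 321, 427 and 429 CPM in Tbx20 KD. All 3 Tbx20 KD libraries lay below all 6 others, and the difference from control was -1.35 on the log2 scale (SE 0.21, adjusted p = 0.748), which did not pass 0.05. Fibroblast markers such as Col1a1, the chain of type I collagen, were abundant, with a summed level of 10 markers of 9580 to 14010 CPM over the 9 libraries.

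The cluster spans 427.1 kb, chr9:7272514-7699585 in GRCm38, from the start of Mmp13 to the end of Mmp7. It holds 13 annotated genes, of which 10 are MMP genes, and the pair that is not among the 8, Mmp1a and Mmp20, lies between them. In order along the chromosome come Mmp13, Mmp12, Mmp1b, Mmp3, Mmp1a, Mmp10, Mmp8, Mmp27, Mmp20 and Mmp7. Of the 8 genes, 7 lie on the plus strand and Mmp1b on the minus strand, and the 3′ ends of Mmp1b and Mmp12 overlap by 1261 bases on opposite strands. Tbx20 itself is on the same chromosome, 17.02 Mb away. By type of enzyme, Mmp13 and Mmp8 are collagenases, which cleave the triple helix of fibrillar collagen, and Mmp1a and Mmp1b are grouped with them by sequence. Mmp3 and Mmp10 are stromelysins with a broad range of matrix substrates, Mmp12 is the macrophage elastase, Mmp7 is matrilysin, an epithelial enzyme that lacks the hemopexin domain, and Mmp27 is a little-studied relative.

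The promoters of 5 genes are shown because they span the patterns found below, with Mmp13 and Mmp10 showing the widest differences, Mmp27 following Mmp10, Mmp3 being the most abundant and Mmp12 differing little. Each stretch runs 5′ to 3′ from 250 bases before to 50 bases after the RefSeq start in GRCm38.p6, all on the plus strand of chromosome 9, at chr9:7272264-7272563 for Mmp13, chr9:7502092-7502391 for Mmp10, chr9:7571146-7571445 for Mmp27, chr9:7445572-7445871 for Mmp3 and chr9:7344147-7344446 for Mmp12. Capitals mark AP-1 matches (TGAGTCA, which reads TGACTCA on the other strand), TATA box matches (TATAAA on either strand) and GATA matches on either strand. The 4 GATA spellings searched were AGATAA with its variant TGATAA, and AGATAG with its variant TGATAG. None of these overlap each other in the windows shown.
Mmp13: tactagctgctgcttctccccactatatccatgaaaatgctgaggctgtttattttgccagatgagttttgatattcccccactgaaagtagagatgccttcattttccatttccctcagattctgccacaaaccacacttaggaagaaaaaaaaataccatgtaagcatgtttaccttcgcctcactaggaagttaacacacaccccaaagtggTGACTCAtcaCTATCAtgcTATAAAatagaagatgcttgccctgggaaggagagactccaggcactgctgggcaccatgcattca
Mmp10: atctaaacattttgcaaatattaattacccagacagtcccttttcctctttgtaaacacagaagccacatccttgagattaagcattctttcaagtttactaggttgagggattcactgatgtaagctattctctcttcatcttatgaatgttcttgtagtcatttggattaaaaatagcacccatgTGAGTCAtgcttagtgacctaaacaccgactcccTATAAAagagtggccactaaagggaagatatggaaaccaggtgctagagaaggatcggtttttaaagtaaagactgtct
Mmp27: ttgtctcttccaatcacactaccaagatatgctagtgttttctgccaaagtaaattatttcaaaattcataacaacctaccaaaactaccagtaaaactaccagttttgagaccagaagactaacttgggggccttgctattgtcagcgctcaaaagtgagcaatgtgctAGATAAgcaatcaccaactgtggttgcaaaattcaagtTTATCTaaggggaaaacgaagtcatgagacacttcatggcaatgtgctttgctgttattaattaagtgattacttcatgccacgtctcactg
Mmp3: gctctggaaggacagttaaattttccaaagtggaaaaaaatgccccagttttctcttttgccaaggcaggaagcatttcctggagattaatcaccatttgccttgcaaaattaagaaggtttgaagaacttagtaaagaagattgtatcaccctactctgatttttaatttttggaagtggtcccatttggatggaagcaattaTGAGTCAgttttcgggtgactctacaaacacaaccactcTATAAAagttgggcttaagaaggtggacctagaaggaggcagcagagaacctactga
Mmp12: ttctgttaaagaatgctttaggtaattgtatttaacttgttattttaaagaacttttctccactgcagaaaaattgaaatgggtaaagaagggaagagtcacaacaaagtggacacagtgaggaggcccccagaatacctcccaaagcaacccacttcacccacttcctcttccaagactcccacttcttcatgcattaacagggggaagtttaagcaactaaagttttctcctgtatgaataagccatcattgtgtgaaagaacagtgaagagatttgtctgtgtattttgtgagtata

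An AP-1 match, the letters bound by Fos and Jun dimers, was present in the promoters of 5 of the 8 genes (Mmp13, Mmp1b, Mmp3, Mmp10 and Mmp7), against 5.20% of the 32851 RefSeq promoters of the same length. It lay close to the start in each, at bases -35 to -29 in Mmp13, -46 to -40 in Mmp3, -63 to -57 in both Mmp10 and Mmp7 and -93 to -87 in Mmp1b. A TATA box match was present in 6 of the 8, against 13.6% of all promoters. A GATA match was found in 3 of 8 (Mmp13, Mmp27 and Mmp7), against 29.8% of all promoters with at least 1 of the 4 spellings. In Mmp27 there were 2, at -80 to -75 and, on the other strand, at -42 to -37, and in Mmp13 there was 1 at -25 to -20, while the window of Mmp10 held none. The letters AGGTGT, the core of a T-box site, searched on both strands, were in 0 of the 8 windows, against 13.7% of all promoters. ETS matches (AGGAAG) were in 6 of 8 against 35.4%, and RUNX matches (ACCACA) in 3 of 8 against 16.8%. A match is a run of letters and not a measured site, and a window without it says nothing about the factor.

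**Figure D1:**
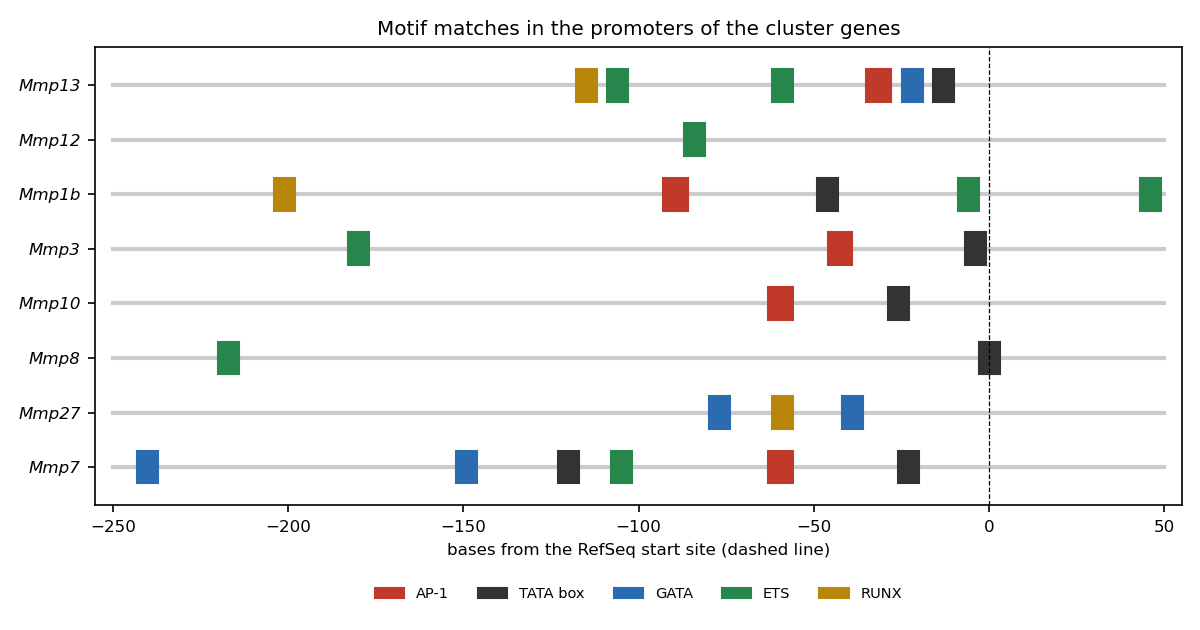
Motif matches in the promoters of the 8 cluster genes, with the distance in bases from the RefSeq start site on the x axis and 1 grey line per gene. Boxes mark matches to AP-1, TATA box, GATA, ETS and RUNX letters on either strand, and AP-1 boxes are seen in 5 of the 8 genes, all within 93 bases of the start.

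Of the 8 genes, 7 had reads and passed the filter on low counts in every comparison. The exception was Mmp7, with 0 counts in all 9 libraries, and a count of 0 allows a level of up to 0.0715 to 0.0961 CPM per library (3 counts, counting error only). Mmp7 was thus not detected at this depth. Per kb of exon, the scale on which genes can be compared with each other, Mmp3 was the highest in control at 28.5 ± 12.1 CPM per kb (SD, n = 3), followed by Mmp10 at 7.08 ± 0.357. Mmp27 (1.81 ± 0.180), Mmp13 (1.78 ± 0.235) and Mmp12 (1.21 ± 0.0856) came next, and Mmp27 and Mmp13 differed by less than their SDs. Mmp8 (0.304 ± 0.0980) and Mmp1b (0.290 ± 0.109) closed the order, and they too differed by less than their SDs. With the longest transcript in place of the union of exons, Mmp12 moved ahead of Mmp13 in control, at 1.96 against 1.78 CPM per kb.

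The order changed with the knockdown. In Gata4 KD, Mmp27 ranked 5 in place of 3, at 0.726 ± 0.0967 CPM per kb, while Mmp12 (1.43 ± 0.0672) and Mmp13 (1.38 ± 0.380) ranked 3 and 4 and differed by less than the SD of Mmp13. In Tbx20 KD, Mmp13 ranked 3 at 6.75 ± 0.206 CPM per kb, behind Mmp3 (56.4 ± 19.8) and Mmp10 (11.6 ± 0.847) and well ahead of Mmp27 (2.42 ± 0.0684). Among the 23 MMP genes of the table, the 8 together made up 17.3 to 24.0% of the summed level per kb in the control libraries, 11.8 to 17.7% in Gata4 KD and 29.4 to 34.7% in Tbx20 KD. Tbx20 KD did not overlap with the other groups in this share. The share depends on the union of exons and was not recomputed with the longest transcript. By the longest transcript, Mmp14, outside the 8, stood at 125.8 in place of 68.3 CPM per kb in control. Mmp12, among the 8, stood at 1.96 in place of 1.21. Mmp3 alone accounted for 58.8 to 84.8% of the 8 genes' level per kb, depending on the library.

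**Figure D2:**
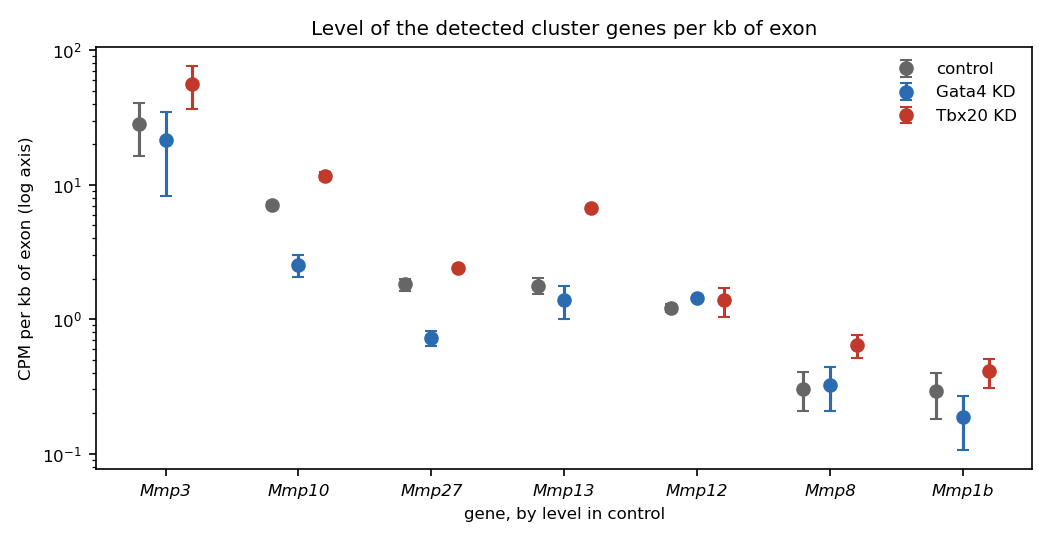
Level of the 7 detected cluster genes in CPM per kb of exon on a log axis, ordered by the level in control. Points are group means and bars are SDs over 3 libraries, and the level spans from 0.290 (Mmp1b) to 28.5 CPM per kb (Mmp3) in control.

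The stromelysin Mmp10 lay below control in every Gata4 KD library and above control in every Tbx20 KD library. It stood at 11.6, 12.8 and 12.2 CPM in control libraries a, b and c, at 5.26, 3.64 and 4.24 CPM in Gata4 KD and at 21.6, 19.9 and 18.7 CPM in Tbx20 KD. The 3 groups did not overlap, with Gata4 KD lowest and Tbx20 KD highest. The mean in Gata4 KD was 4.38 ± 0.821 CPM against 12.2 ± 0.614 CPM in control (SD, n = 3), a log2 fold change of -1.48 (SE 0.15), which passed 0.05 in the edgeR fit across all genes. In Tbx20 KD the mean was 20.04 ± 1.46 CPM, and the log2 fold change of 0.72 (SE 0.09) did not pass. Between the knockdowns the ratio was 4.57-fold in favour of Tbx20 KD, a log2 fold change of -2.19 (SE 0.14) for Gata4 KD against Tbx20 KD, which passed.

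Mmp27 followed the same order of groups at a lower level. Its libraries held 4.05, 4.38 and 3.59 CPM in control, 1.69, 1.36 and 1.76 CPM in Gata4 KD and 5.53, 5.24 and 5.29 CPM in Tbx20 KD. Again no group overlapped with another. The log2 fold change was -1.32 (SE 0.18) in Gata4 KD against control, which passed, and 0.42 (SE 0.13) in Tbx20 KD against control, which did not. In Gata4 KD against Tbx20 KD it was -1.73 (SE 0.14), which passed. Over the 9 libraries the log2 CPM of Mmp27 and Mmp10 had a Pearson correlation of 0.987, the highest of any pair of the cluster genes. These are 9 points in 3 groups that share libraries and depth, so that the value mostly restates the difference between groups. Mmp8, the gene that lies between this pair on the chromosome, did not have this pattern.

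The collagenase Mmp13 stood apart in Tbx20 KD. It was at 5.42, 4.18 and 4.63 CPM in control, at 4.86, 3.11 and 3.08 CPM in Gata4 KD and at 18.0, 18.6 and 17.5 CPM in Tbx20 KD. The Tbx20 KD libraries lay far above the other 6, which overlapped with each other. The mean of 18.0 ± 0.549 CPM in Tbx20 KD was 3.80-fold that in control, 4.75 ± 0.628 CPM, with a log2 fold change of 1.93 (SE 0.12) that passed 0.05. The log2 fold change in Gata4 KD against control was -0.37 (SE 0.22), which did not pass, and that between the knockdowns was -2.29 (SE 0.17), which did. The spread among the Tbx20 KD libraries was small, with a coefficient of variation (CV) of 3.05%, against 3.82% from counting error alone.

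**Figure D3:**
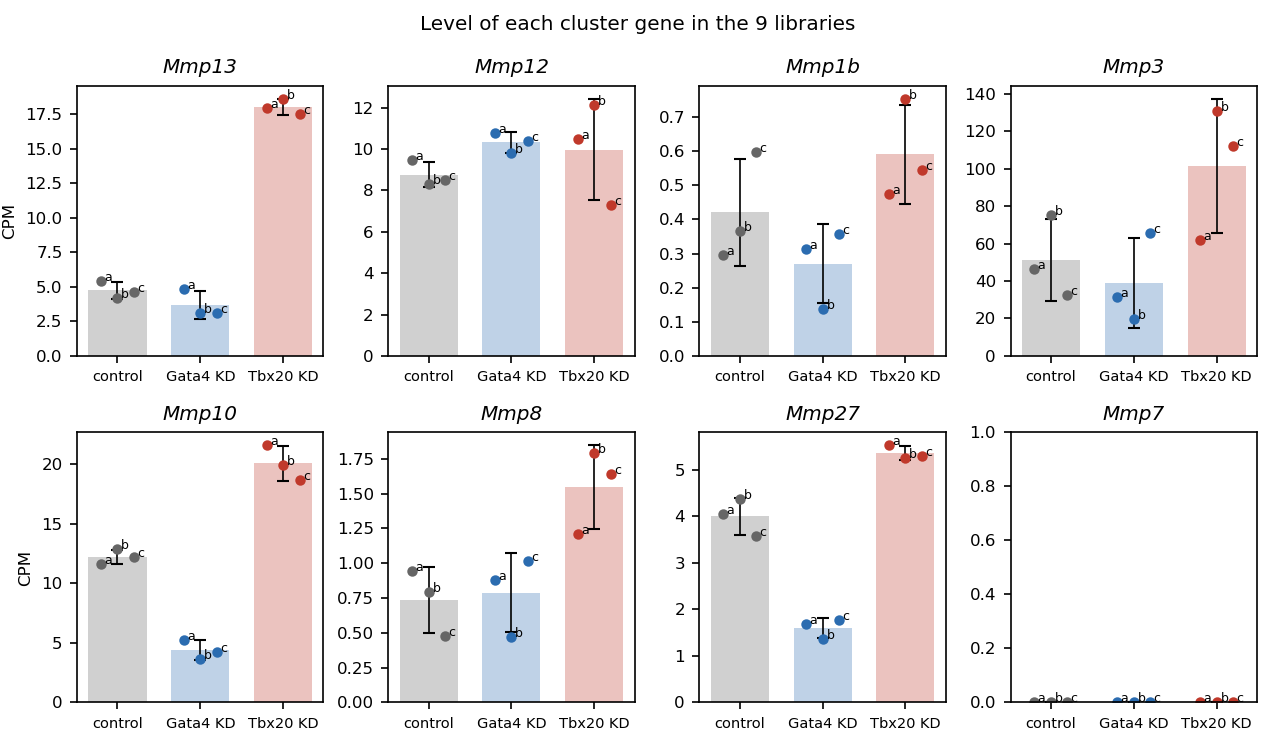
Level in CPM of each of the 8 cluster genes, with 1 panel per gene and its own y axis. Points are libraries a, b and c, bars are group means and error bars are SDs (n = 3), and the groups are separate in Mmp10 and Mmp27, while only Tbx20 KD is separate in Mmp13 and Mmp8.

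Mmp3, the most abundant of the 8, varied widely within each group. It stood at 46.3, 75.2 and 32.5 CPM in control, at 31.4, 19.6 and 65.6 CPM in Gata4 KD and at 61.8, 131 and 112 CPM in Tbx20 KD. Each group overlapped with the others, since control b was above Tbx20 KD a and Gata4 KD c was above Tbx20 KD a as well. The CVs were 42.4, 61.5 and 35.2% in control, Gata4 KD and Tbx20 KD, on 704 to 4506 counts, while counting error at the groups' mean counts gives 2.34, 2.71 and 1.63%. The log2 fold changes of -0.40 (SE 0.43) in Gata4 KD, 0.99 (SE 0.34) in Tbx20 KD and -1.38 (SE 0.45) between the knockdowns did not pass 0.05. With 1 library left out they ran from -0.99 to -0.030, from 0.75 to 1.37 and from -2.00 to -1.05, and the lowest value of the first and of the last was that without Gata4 KD library c.

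Within groups, Mmp3 moved with Tbx20, a relation that was noticed after the values were seen. In control both genes were highest in library b and lowest in library c, and in Gata4 KD both were highest in library c and lowest in library b. In Tbx20 KD library a was the lowest for both, and libraries b and c, with 427 and 429 CPM of Tbx20, were in the opposite order for Mmp3. Across groups the relation did not hold, as Tbx20 KD had the least Tbx20 and the highest mean of Mmp3. Tapbp, P4ha1 and Sertad4, picked below as genes most like Mmp3, were also highest in control b and Gata4 KD c. They were lowest in control c, Gata4 KD b and Tbx20 KD a. As they were picked over these same libraries, their order followed from the choice and supports nothing. The share of all genes with this order was not counted, and what these libraries share was not tested.

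The collagenase Mmp8, known best from neutrophils, was low everywhere. It had 0.944, 0.791 and 0.478 CPM in control, 0.877, 0.472 and 1.02 CPM in Gata4 KD and 1.21, 1.79 and 1.64 CPM in Tbx20 KD, on 16 to 66 counts. All 3 Tbx20 KD libraries were above all others, while control and Gata4 KD overlapped. The log2 fold changes were 0.09 (SE 0.38), 1.06 (SE 0.29) and -0.96 (SE 0.31) in Gata4 KD against control, Tbx20 KD against control and Gata4 KD against Tbx20 KD, and none passed. Of 9 neutrophil markers, 8 were under 1 CPM in every library, and their summed level was 3.02 to 6.16 CPM in control, 3.08 to 3.84 CPM in Gata4 KD and 3.45 to 4.17 CPM in Tbx20 KD. These sums overlapped between the groups. With nearly all markers this low they can say little of such cells, whose part in the level of Mmp8 was not tested.

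Mmp12 differed little between the groups. It stood at 9.47, 8.31 and 8.52 CPM in control, at 10.8, 9.81 and 10.4 CPM in Gata4 KD and at 10.5, 12.1 and 7.30 CPM in Tbx20 KD. The Gata4 KD libraries lay just above the control libraries, and Tbx20 KD overlapped with both. The log2 fold changes were 0.23 (SE 0.11) and 0.19 (SE 0.18) against control and 0.06 (SE 0.17) between the knockdowns, and none passed. Its log2 CPM had correlations of -0.252 to 0.188 with the other 6 detected genes over the 9 libraries, again as a description. As Mmp12 is the elastase of macrophages, the summed level of 15 macrophage markers is given beside it. It was 65.6 to 73.8 CPM in control, 36.1 to 65.8 CPM in Gata4 KD and 62.0 to 97.4 CPM in Tbx20 KD, with none of the 15 at 0 in all libraries and the pan-leukocyte gene Ptprc at 1.64 to 3.14 CPM over the 9 libraries. In bulk RNA, fewer cells of a type and less RNA per cell cannot be told apart. Library b of Gata4 KD had the lowest sum of these markers and library b of Tbx20 KD the highest, and the part of these cells in the level of Mmp12 was not tested.

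Mmp1b, a rodent counterpart of human MMP1, rested on 5 to 24 counts. It stood at 0.297, 0.367 and 0.598 CPM in control, at 0.313, 0.139 and 0.358 CPM in Gata4 KD and at 0.474, 0.754 and 0.546 CPM in Tbx20 KD. The Gata4 KD libraries were all below the Tbx20 KD libraries, and control overlapped with both. The log2 fold changes were -0.63 (SE 0.46), 0.49 (SE 0.36) and -1.11 (SE 0.38) in the same order of comparisons, and none passed. Its counts also carry the error of sequence shared with Mmp1a. In all, 12.8% of its windows of 75 bases, the length of the reads, occurred in Mmp12 or Mmp1a, counting matches on either strand. As Mmp12 overlaps it on the opposite strand and reads were assigned by strand, this share can overstate the error. The coding sequences of Mmp1b and Mmp1a were 90.6% identical, the highest of the 45 pairs among the 10 MMP genes of the locus.

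Counted over the cluster, 2 of the 8 genes passed 0.05 in Gata4 KD against control, Mmp10 and Mmp27, both lower, where 0.380% of all genes tested passed and 0.180% did so in that direction. In Tbx20 KD against control 1 of 8 passed, Mmp13, which was the whole of the 0.00687% of genes that passed. Between the knockdowns 3 of 8 passed, Mmp13, Mmp10 and Mmp27, all lower in Gata4 KD, against 1.44% of all genes in either direction and 0.622% lower. As these comparisons were among those by which the genes came to notice, nothing is read from the counts. Without control library a no cluster gene passed in Gata4 KD against control (edgeR, 2 at an unadjusted p under 0.05, where 8.54% of all genes had such a p with all libraries), and Mmp10 alone passed without control library c, Gata4 KD library a or Gata4 KD library b. Mmp3 was added between the knockdowns without Gata4 KD library c.

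By the position of libraries, 2 genes were lower in every Gata4 KD library than in every control library (Mmp10 and Mmp27, against 7.67% of all genes tested) and 1 was higher (Mmp12, against 6.17%). In Tbx20 KD against control 4 were higher in every library (Mmp13, Mmp10, Mmp8 and Mmp27, against 3.42%). In Gata4 KD against Tbx20 KD 5 were lower in every library (Mmp13, Mmp1b, Mmp10, Mmp8 and Mmp27, against 10.8%). The 2 comparisons with control share the control libraries. The median log2 fold change of the 7 genes that passed the filter was -0.40, 0.72 and -1.38 in the 3 comparisons, beside -0.017, -0.0022 and -0.0063 over all genes tested.

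The other genes of the locus were tested, as the choice of genes did not use them. Mmp1a had 0 to 3 counts per library and Mmp20 had 0 in all, and neither passed the filter. The 10 protein-coding genes within 1 Mb of either end were Pdgfd, a growth factor for mesenchymal cells, Dync2h1, Dcun1d5, Tmem123, the inhibitors of apoptosis Birc2 and Birc3, the Hippo pathway coactivator Yap1, Cfap300, Cep126 and the cation channel Trpc6. All 10 were tested, and 0 passed in any comparison (edgeR, with 0, 0 and 3 at an unadjusted p under 0.05), with the smallest adjusted p at 0.672 in Gata4 KD against control, 0.9997 in Tbx20 KD against control and 0.112 between the knockdowns. Their log2 fold changes ran from -0.74 to 0.14, from -0.27 to 0.42 and from -1.15 to 0.33. The extremes of -0.74, 0.42 and -1.15 were those of Trpc6, which had 9 to 43 counts. Over all genes tested, 0.380%, 0.00687% and 1.44% passed in the 3 comparisons. With shares this low, 0 of 10 passing cannot tell the flanking genes from other genes. Between the knockdowns, 2422 of the 14477 genes tested had an unadjusted p under 0.05 (edgeR), beside 3 of the 10 here.

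**Figure D4:**
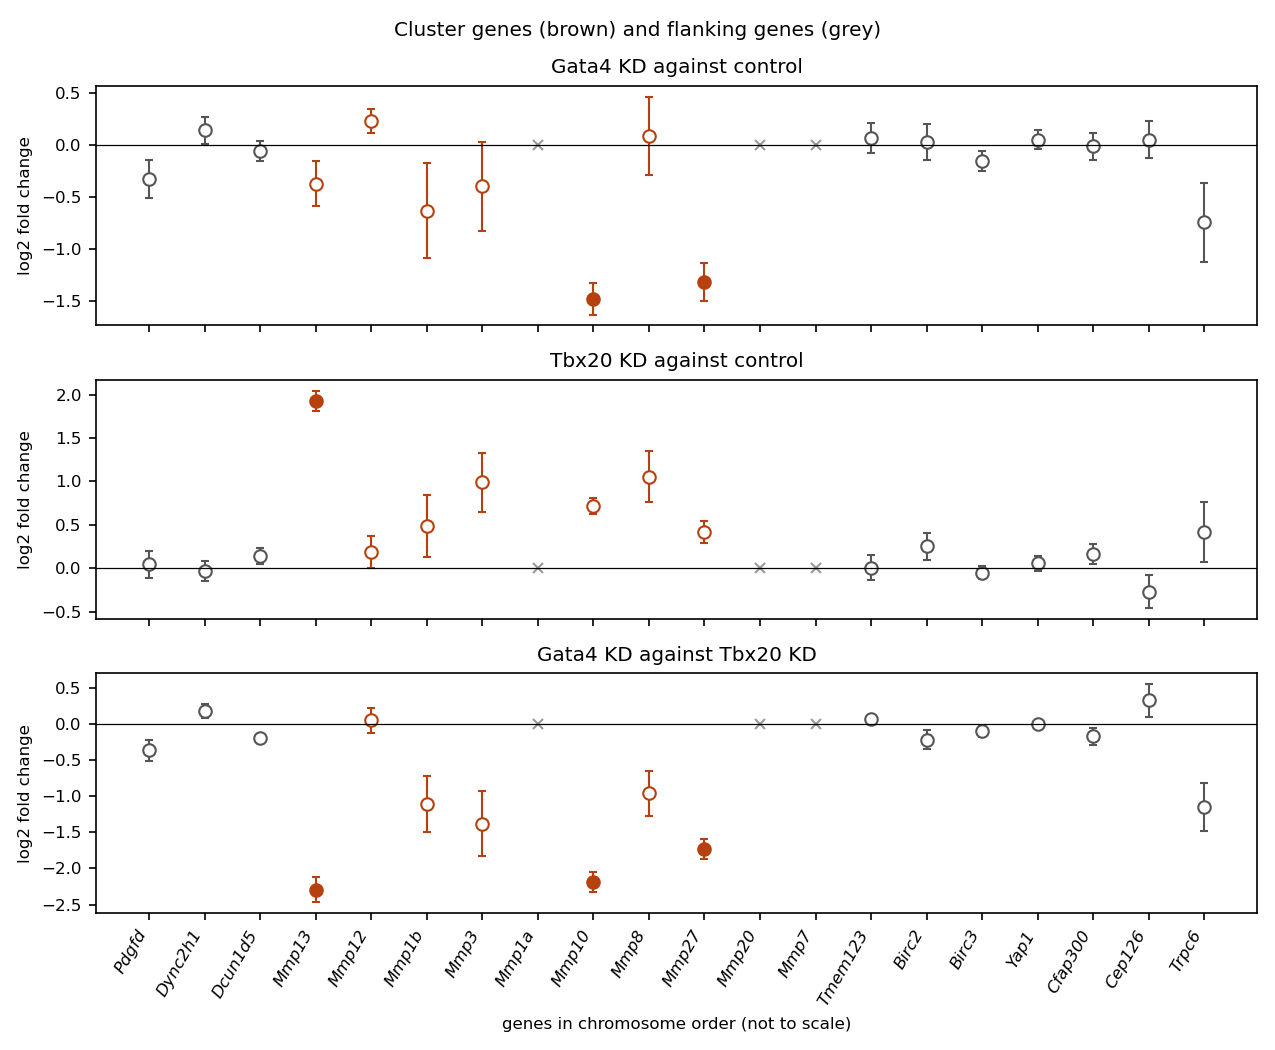
Log2 fold change of the MMP genes and the 10 flanking genes in chromosome order, with 1 panel per comparison. Circles are estimates, bars are SEs, filled circles passed an adjusted p of 0.05 over all genes, and crosses mark Mmp1a, Mmp20 and Mmp7, which had too few counts. Filled circles are seen for Mmp10 and Mmp27, for Mmp13, and for all 3 in the respective panels, while no flanking gene is filled.

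Of the 15 MMP genes outside the 8, 9 had enough counts to be tested and 0 passed in any comparison (edgeR, with 2, 0 and 0 at an unadjusted p under 0.05). The most abundant were Mmp14, the membrane-type enzyme that activates Mmp2, the gelatinase Mmp2 and the membrane-type Mmp16. Between the knockdowns their log2 fold changes were -0.03 (SE 0.10, adjusted p = 0.904), -0.17 (SE 0.31, adjusted p = 0.823) and -0.25 (SE 0.14, adjusted p = 0.424). The median over the 9 was -0.17, beside -1.38 over the 7 cluster genes that passed the filter.

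Inhibitors and activators of these enzymes gave no call either. Of 6 inhibitor genes 4 were tested, and 0 passed in any comparison (edgeR, 0 at an unadjusted p under 0.05 in each). On the log2 scale, Timp1 differed between the knockdowns by -0.04 (SE 0.17, adjusted p = 0.928), Timp2 by -0.02 (SE 0.06, adjusted p = 0.885) and Timp3 by 0.07 (SE 0.13, adjusted p = 0.816). Of 9 genes of the plasmin and furin routes, which remove the propeptide, 8 were tested and 0 passed (edgeR, 1, 0 and 2 at an unadjusted p under 0.05). Furin had 0.15 (SE 0.05, adjusted p = 0.195) between the knockdowns. As so few of all genes passed in any comparison, 0 of 4 and 0 of 8 do not set these lists apart.

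Among 10 genes of AP-1, 9 were tested and 1 passed, Fosl2, which was higher in Gata4 KD than in Tbx20 KD. Of all genes tested, 1.44% passed between the knockdowns. It stood at 316, 333 and 282 CPM in Gata4 KD and at 232, 206 and 216 CPM in Tbx20 KD, with control between 219 and 245 CPM. Gata4 KD lay above both other groups, which overlapped, and the log2 fold change between the knockdowns was 0.51 (SE 0.07, adjusted p = 0.0242). Jun, with 0.03 (SE 0.08, adjusted p = 0.87), and Fosl1, with 0.33 (SE 0.25, adjusted p = 0.547), did not pass. Between the knockdowns, Fosl2 was higher in Gata4 KD, where Mmp10, Mmp13 and Mmp27 were lower. Against control, Mmp13 was separate in Tbx20 KD alone, the knockdown in which Fosl2 overlapped with control. A link between Fosl2 and the cluster genes was not tested. Of 12 ETS, RUNX, NF-kB and C/EBP genes, all tested, 0 passed in any comparison (edgeR, 5, 0 and 3 at an unadjusted p under 0.05). With so few of all genes passing, 0 of 12 says little of these genes.

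Among 18 genes of cytokines and receptors tied to the induction of MMP genes was the interleukin 1 antagonist Il1rn. Of the 18, 16 were tested and 3 passed between the knockdowns, Il11, Il6 and Fgf2, all higher in Gata4 KD. Over all genes tested, 1.44% passed there, and 118 of these 208 genes were higher in Gata4 KD. Il11, a fibroblast cytokine of the interleukin 6 family, stood at 15.9, 17.5 and 9.22 CPM in Gata4 KD and at 3.06, 1.79 and 1.71 CPM in Tbx20 KD, and the log2 difference was 2.68 (SE 0.31, adjusted p = 0.0115). Il6 had 0.42 (SE 0.07, adjusted p = 0.0405) and Fgf2, a growth factor for fibroblasts, had 0.76 (SE 0.12, adjusted p = 0.0377). Of 13 genes of matrix substrates, 12 were tested, and Col2a1, the collagen of cartilage, with 0.61 (SE 0.10, adjusted p = 0.0416), and Tnc, the matrix glycoprotein tenascin C, with 0.87 (SE 0.12, adjusted p = 0.0242), were higher in Gata4 KD. The most abundant substrates did not pass, with 0.25 (SE 0.11, adjusted p = 0.334) for the fibronectin gene Fn1, -0.32 (SE 0.13, adjusted p = 0.267) for Col1a1 and -0.31 (SE 0.15, adjusted p = 0.352) for Col1a2. In both comparisons with control, 0 genes of the AP-1, cytokine and substrate lists passed (edgeR, 1, 6 and 4 at an unadjusted p under 0.05 in Gata4 KD and 1, 1 and 2 in Tbx20 KD). Of all genes tested, 0.380% passed in Gata4 KD and 0.00687% in Tbx20 KD, so that 0 in these lists says little.

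Genes whose log2 CPM was most like that of Mmp13, Mmp3 and Mmp10 over the 9 libraries were taken from 10056 genes with a mean of at least 5 CPM. For Mmp10 the 5 highest Pearson correlations were those of Cplx2 (0.990), Ndst3 (0.965), Creb3l1 (0.960), Gata4 itself (0.959) and Gcnt1 (0.958). For Mmp13 they were those of Ecd (0.951), Rnpepl1 (0.938), Ube2l6 (0.937), Hspb7 (0.917) and Ndrg1 (0.904). For Mmp3 they were those of Irgm1 (0.989), Gucy1a1 (0.988), Tapbp (0.988), P4ha1 (0.985) and Sertad4 (0.980). No gene was in 2 of these sets. The like genes of Mmp10 and Mmp13 stepped between groups, while those of Mmp3 also followed it from library to library within groups. All were picked by this likeness, so that a shared course follows from the choice. Mmp13 correlated with Mmp10 at 0.837 and Mmp3 with Mmp8 at 0.880, and Mmp27, Mmp8 and Mmp1b were below the mean of 5 CPM and could not be listed as like genes.

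**Figure D5:**
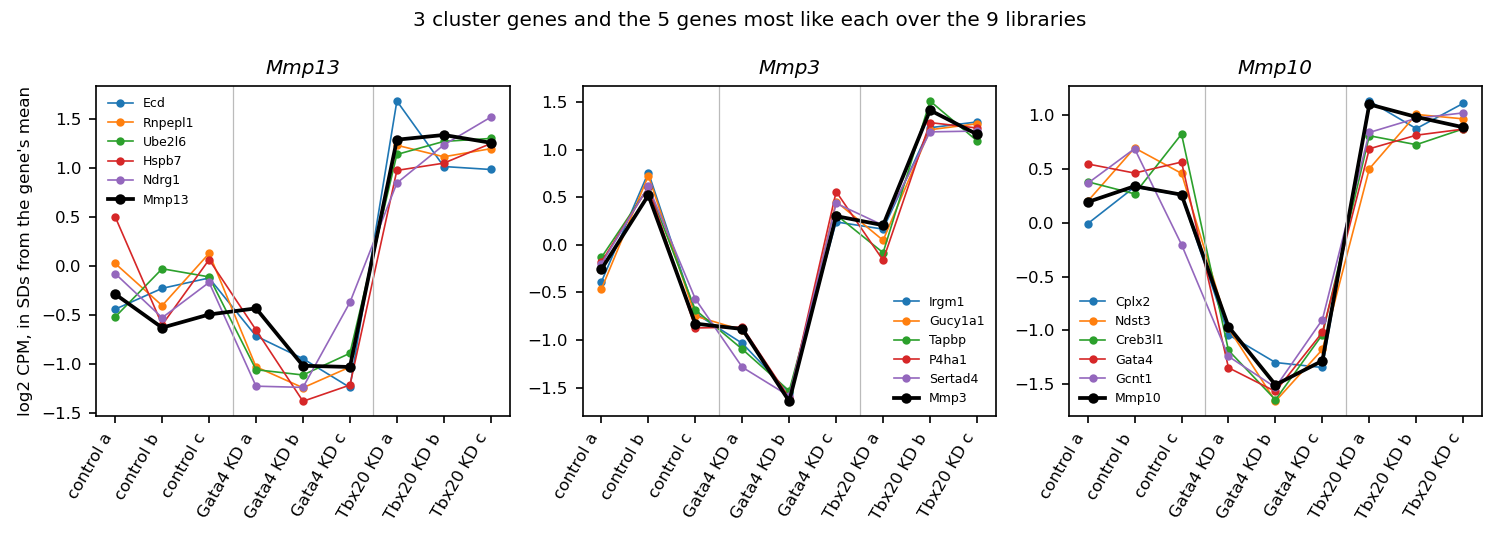
Log2 CPM of Mmp13, Mmp3 and Mmp10 (black) and of the 5 genes most like each (colours) in the 9 libraries, in SDs from each gene's own mean. Lines of Mmp10 and Mmp13 step between groups, and lines of Mmp3 rise in control b and Gata4 KD c and fall in Gata4 KD b.

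Near-identical sequence can move reads between neighbours, and its extent was measured on the transcripts. Matches on either strand were counted, although reads were assigned by strand. Mmp3 and Mmp10 had 80.5% identical coding sequences, but 3.76% of the 75 base windows of Mmp3 and 3.94% of those of Mmp10 occurred in the other. The windows of Mmp13, Mmp8 and Mmp27 were found in no other gene, and 1.16% of those of Mmp12 were shared. The Mmp7 windows were shared at 5.03%, with an antisense transcript.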

How the data were processed

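RNA from sorted and transfected cardiac fibroblasts was read as 75 base single-end reads from an mRNA kit. After quality trimming, the authors ran RSEM with Bowtie2 as its aligner on GRCm38, by strand; the submitters' processing notes list Bowtie, RSEM and mm9. The deposited unit is expected counts per gene, whole numbers with no normalization. RSEM divides reads that match several genes, so that near-identical copies carry added error.

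Symbols and positions came from a GENCODE annotation of GRCm38 by Ensembl ID (37607 of 38924 IDs matched), and promoters from RefSeq (GRCm38.p6), in which all 8 genes were found. Each comparison was fitted on its 6 libraries in R 4.3.3 with edgeR 4.0.16 (filterByExpr, TMM, quasi-likelihood F test, Benjamini-Hochberg over all genes tested, threshold 0.05, no covariate). The SE is the absolute log2 fold change over the square root of F. Correlations used log2 CPM with a prior count of 2. Alternatives were DESeq2 1.42.0, no filter, a filter of 1 CPM in 2 libraries, library size alone, an exact test, limma-voom, 1 fit over all 9 libraries, a replicate block and leaving out each library. The code was tested on simulated data. The labels name no batch.

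Genes and lists were chosen with earlier results of these data known. Named were the 8 genes, Mmp1a, Mmp20, the targets, up to 4 genes per list by smallest p among those that passed and up to 3 by mean CPM. The coding genes within 1 Mb were listed by position, and Trpc6 was singled out after its values were seen. Proteins were not analysed here.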

Additional observations from a re-analysis of the deposited data

Results flagged for a closer look

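Results are listed here because the knockdowns differed in a test of the difference itself, Gata4 KD against Tbx20 KD, which uses no control library. Among the cluster genes these were Mmp13, Mmp10 and Mmp27, with log2 fold changes of -2.29, -2.19 and -1.73. They were chosen with this comparison known, so that the listing is no independent evidence. The target Gata4 had -1.77.

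Among genes of the lists, Il11 had a log2 fold change of 2.68, Tnc 0.87, Fgf2 0.76, Col2a1 0.61, Fosl2 0.51 and Il6 0.42 in the same comparison. Among markers of other cell types, 1 gene of each of 3 lists passed, and the other genes of these lists had both signs. Of all genes tested, 1.44% passed in this comparison. The mesothelial gene Lrrn4 had -3.42, but of the other 4 tested in its list Krt19 had 1.17, Upk3b -1.30, Krt18 -0.18 and Wt1 -0.18, and none passed. The bone matrix gene Spp1 had 1.66, while Sox9 had -0.09 and Alpl 0.05. The endothelial receptor Kdr had 0.90. In its list Vwf had 0.62, Pecam1 0.36 and Emcn 0.19, while Tek had -0.48 and Cdh5 -0.20, and none of these passed. The summed endothelial level overlapped, at 39.98 to 58.2 CPM in Gata4 KD and 43.2 to 54.3 CPM in Tbx20 KD. The summed level of the 9 epithelial or mesothelial markers was 24.4 to 45.9 CPM in control, 8.73 to 16.8 CPM in Gata4 KD and 26.5 to 42.3 CPM in Tbx20 KD, so that it was lower in the group where Mmp10 and Mmp27 were lower. The part of these cells in the levels of Mmp10 and Mmp27 was not tested.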

How the results depend on the processing

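In Gata4 KD against control 55 genes passed, against 279 with DESeq2, 121 with no filter, 250 with an exact test, 148 in 1 fit over 9 libraries, 5 with a replicate block and 6 to 189 with 1 library left out. In Tbx20 KD against control 1 passed, against 10, 2 and 8 with DESeq2, no filter and the exact test, 2 with the block and 1 to 5 with 1 library left out. Between the knockdowns 208 passed, against 758, 324 and 729, 101 with the block and 22 to 801 with 1 library left out. The split of these 208 was 118 higher and 90 lower in Gata4 KD, and 90 and 112 with library size alone. Of the cluster genes, the 2 calls in Gata4 KD became 0 with the block and 0 to 2 with 1 library left out. With the block, 2 had an unadjusted p under 0.05 (edgeR), as did 1066 of the 14468 genes tested. The 1 in Tbx20 KD became 2 with DESeq2 and 2 with the exact test, which added Mmp10, and stayed at 1 with any library left out. The 3 between the knockdowns became 4 with the exact test and 3 to 4 with 1 library left out. Libraries with the same letter had correlations of -0.17 to 0.255 in their deviations, with 3 of 9 over 0.1, so that the letters were not taken as pairs. The 290 log2 fold changes of cluster genes under alternatives moved by less than 1 SD, here the SD of log2 CPM between libraries pooled over the groups compared, which is wide for Mmp3. With limma-voom 48, 1 and 196 genes passed in the 3 comparisons, with the same 2, 1 and 3 cluster genes. The ranks of Mmp13 and Mmp12 in control were 4 and 5, and 5 and 4 by the longest transcript. Depth limits Mmp1b, Mmp8 and Mmp7. The causes were not tested.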
